A study of Mus musculus and Homo sapiens
Mus musculus with 16 samples.

Results

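The genes described here are the cadherins and protocadherins of the mouse, 90 of the 20665 autosomal protein-coding genes in the RefSeq gene table of GRCm38.p6, whose primary sequence is that of mm10. They were chosen by symbol, as Cdh followed by a number or Pcdh. Of the 90, 18 are classical cadherins (5 of type I and 13 of type II), 10 are non-clustered protocadherins, 57 are clustered protocadherins and 5 are other cadherins (Cdh13, Cdh16, Cdh17, Cdh23 and Cdh26). The X-linked Pcdh11x and Pcdh19, 2 symbols in all, lie outside the autosomal lists. Promoter contacts were measured by H3K4me3 PLAC-seq in fetal forebrain of Mus musculus at E12.5 and E16.5, which count days of embryonic development, in 2 libraries each. In PLAC-seq, neighbouring DNA ends within crosslinked nuclei are ligated, and an antibody then pulls down ligated fragments from chromatin with a given histone mark, here H3K4me3 of active and poised promoters. The labels give no strain, genotype or treatment, and do not say whether the replicates of a stage came from separate embryos or from pools, so p-values measure the spread between libraries, which may be technical. The series holds 16 samples, and the other 12, which are single-cell libraries, were not analysed here.

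Each library came as a list of interactions, that is, pairs of 10 kb bins 20 to 1000 kb apart that the authors called at an FDR under 0.01. The E12.5 libraries listed 18413 and 16075 interactions on 446855 and 405491 read pairs, and the E16.5 libraries 35291 and 36794 on 892987 and 911710, with a median of 19 to 20 read pairs per interaction in each. The sequencing depth is unknown, and a pair that is not listed did not pass the authors' threshold, which does not show that it lacks contact. The E16.5 lists were longer for all genes, so numbers were scaled to each library before any test. Here and in what follows, 4 values in a row are always in the order E12.5 replicate 1, E12.5 replicate 2, E16.5 replicate 1 and E16.5 replicate 2. Forebrain marker genes, 12 of 13 of them with a tested bin, had summed numbers of 204, 208, 259 and 218 listed interactions. Those of hindbrain and spinal cord (9 of 10 tested) had 85, 61, 61 and 38, of the meninges 18, 18, 23 and 10, of microglia 3, 2, 1 and 2, of endothelium 0, 0, 1 and 0, and of erythroid cells 1, 0, 0 and 1. Some markers changed in number between the stages by edgeR at an adjusted p under 0.05, where 7.39% of all tested bins were called higher at E16.5 and 2.16% lower. Among forebrain markers, Neurod6 and Tbr1, transcription factors of cortical neurons, were called higher, with 0, 0, 21 and 15 and 3, 3, 27 and 20 interactions, and 3 were called lower, Emx2, Dlx2 and Sox2, transcription factors of forebrain progenitors. Among hindbrain and spinal cord markers, 4 of the 9 tested were called lower, Hoxb2, Hoxb3, Hoxb4 and Pax2, and none higher. With either E16.5 library left out these marker calls were not made, and the share of all bins called in such fits is not given here. The part of these markers in the differences at the cadherin and protocadherin genes was not tested. A change in contacts per cell and a change in the share of a cell type cannot be told apart in such tissue libraries.

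Cadherins are calcium-dependent adhesion proteins of the cell surface. Classical cadherins bind the same cadherin on a neighbouring cell and are coupled to actin through the catenins, and in the forebrain they hold the neuroepithelium together and help to sort neurons into regions and layers. Non-clustered protocadherins lie as separate genes with large first exons and differ in their cytoplasmic tails, some of which recruit the WAVE actin regulator. The clustered protocadherins stand in the alpha, beta and gamma arrays, where each variable exon has its own promoter, alpha and gamma variable exons are spliced to shared constant exons at the end of the array, and promoter choice, with CTCF and cohesin, gives each neuron its own set of isoforms.

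Start positions with sequence were at hand for 21 of the 90 genes (24 promoters) from the RefSeq promoter table of GRCm38.p6. Of these, 3 delta-2 protocadherins are shown because they span the range of contacts described below: Pcdh8 had the most listed interactions of any such start, Pcdh17 had 1 and Pcdh10 had none. Each is the 250 bases before the start, 5′ to 3′ on the gene's strand, with CpG dinucleotides in capitals. The windows are chr14:79771313-79771562 (minus strand) for Pcdh8, chr14:84443313-84443562 (plus strand) for Pcdh17 and chr3:45378148-45378397 (plus strand) for Pcdh10.
Pcdh8: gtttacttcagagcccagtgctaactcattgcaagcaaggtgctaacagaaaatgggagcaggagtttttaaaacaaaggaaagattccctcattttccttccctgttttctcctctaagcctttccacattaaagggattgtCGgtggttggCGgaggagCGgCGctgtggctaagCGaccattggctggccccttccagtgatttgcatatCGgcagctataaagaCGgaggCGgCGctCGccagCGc
Pcdh17: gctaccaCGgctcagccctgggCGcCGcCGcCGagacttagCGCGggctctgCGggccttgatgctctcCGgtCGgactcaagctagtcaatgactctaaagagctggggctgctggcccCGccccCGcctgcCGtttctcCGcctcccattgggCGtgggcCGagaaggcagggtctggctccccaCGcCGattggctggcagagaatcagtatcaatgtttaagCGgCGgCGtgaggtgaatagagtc
Pcdh10: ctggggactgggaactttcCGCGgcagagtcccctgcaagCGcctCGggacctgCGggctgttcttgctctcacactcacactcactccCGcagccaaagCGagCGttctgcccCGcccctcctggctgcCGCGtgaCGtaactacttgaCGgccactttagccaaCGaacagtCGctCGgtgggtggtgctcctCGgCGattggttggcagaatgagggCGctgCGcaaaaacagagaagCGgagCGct

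These windows hold 11, 21 and 22 CpG dinucleotides (the letters CG, which read the same on both strands). Over all 20085 autosomal promoters of 16457 genes the median was 10, and 93.69% held at least 1. The 24 cadherin and protocadherin promoters had a median of 9, and 23 of them held at least 1.

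The 90 genes have 112 bins that hold a gene end, out of 30812 such bins of all genes. Both ends were used because the gene table gives no strand. In at least 1 library, 41 of the 112 bins touched a listed interaction, against 32.0% of all gene-end bins, and 13 reached the summed number of 10 over the libraries that was required for a test, against 7.95%. The other 28 bins with a contact had summed numbers of at most 8. By gene, 9 of 10 non-clustered protocadherins, 8 of 18 classical cadherins, 22 of 57 clustered protocadherins and 2 of 5 other cadherins had a listed interaction at either end. The share of all genes on this measure is not given here. Of the 22 clustered genes, 21 are gamma genes that share 1 end bin with a contact, so they do not count separately. The classical cadherins without any were Cdh1 and Cdh3, the E- and P-cadherins of epithelia and placenta, Cdh5, the VE-cadherin of endothelium, and the type II genes Cdh6, Cdh7, Cdh9, Cdh10, Cdh12, Cdh18 and Cdh19. The annotated starts of Cdh10 and Cdh12 lie inside the gene span, in bins that hold neither gene end, and each of these start bins touched 1 interaction, in E16.5 replicate 1. The non-clustered gene without any was Pcdh10. In all, 298 of the 58543 bin pairs listed in any library touched an end of these genes.

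Interactions that touch these genes made up a larger share of the list in both E16.5 libraries. Their numbers were 66, 50, 157 and 212, which is 0.3584%, 0.311%, 0.4449% and 0.5762% of each library's list. The share was 0.335% ± 0.0335 (SD, n = 2) at E12.5 and 0.5105% ± 0.0929 at E16.5, a ratio of 1.525, and the groups did not overlap. An exact two-sided permutation test over the 6 assignments of the libraries gave p = 0.3333, the smallest p that 2 against 2 allows, so no difference between the stages on this scale can pass 0.05. The replicates shared 24 of these interactions at E12.5 (36.36% and 48.0% of each list, against 51.44% and 58.92% of all listed interactions) and 92 at E16.5 (58.6% and 43.4%, against 58.9% and 56.5%).

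By class, the non-clustered protocadherins had the largest ratio of E16.5 to E12.5 among the 3 main classes. They had 22, 13, 70 and 92 interactions. Their share was 0.1002% ± 0.0273 at E12.5 and 0.2242% ± 0.0366 at E16.5 (SD, n = 2 each), a ratio of 2.238 with no overlap between stages. Of these interactions, Pcdh8 supplied 10, 4, 34 and 44, Pcdh7 2, 1, 11 and 18 and Pcdh1 8, 8, 17 and 20. The class share thus rests largely on these genes and is no trait of every gene in the class. Classical cadherins had 32, 27, 62 and 98, and their shares of 0.1738%, 0.168%, 0.1757% and 0.2663% show that E16.5 replicate 2 stood above the other libraries, which lay close together. By read pairs in place of interactions the classical share was 0.9119 times as high at E16.5, so its direction depends on the measure. Clustered protocadherins had 11, 10, 21 and 16, with shares of 0.05974%, 0.06221%, 0.05951% and 0.04349%, both E16.5 values below both E12.5 values and a ratio of 0.8445. The other cadherins had 1, 0, 4 and 6. The exact permutation test gave p = 0.3333 for each class. The number of non-clustered over clustered interactions, on a log2 scale, was 1.00, 0.38, 1.74 and 2.52, and that of classical over non-clustered was 0.54, 1.05, -0.18 and 0.09. The stages did not overlap in either ratio, again with the smallest exact p of 0.3333. Their direction also follows from the shares above and adds no independent evidence.

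**Figure D1:**
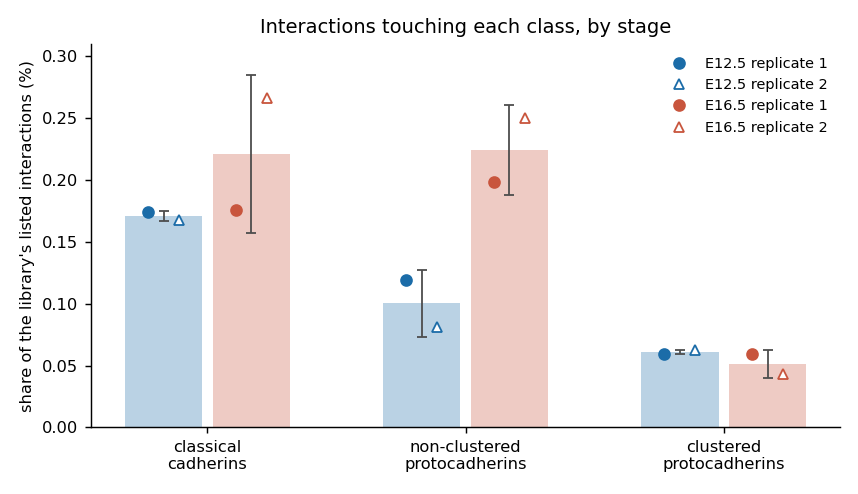
Share of each library's listed interactions that touch a classical cadherin, a non-clustered protocadherin or a clustered protocadherin (vertical axis, percent). Points are libraries, bars are means of 2 and whiskers are SD; the non-clustered points at E16.5 (0.1984 and 0.25) lie above those at E12.5 (0.1195 and 0.0809), and the clustered points stay between 0.0435 and 0.0622.

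The clustered protocadherins had the shortest contacts. The median distance of clustered protocadherin interactions was 100, 45, 120 and 75 kb. It was below that of classical cadherins (165, 210, 585 and 430 kb) and of non-clustered protocadherins (215, 200, 275 and 255 kb) in 4 of 4 libraries. The exact sign-flip test over the 4 libraries gave p = 0.125 for each comparison, the smallest it allows. The clustered genes lie side by side and share bins, so their distances are not separate measurements. Between stages, the classical and the non-clustered medians at E16.5 each exceeded those at E12.5 without overlap (exact permutation p = 0.3333 each). The clustered stages overlapped (exact permutation p = 0.6667). The median of all listed interactions was 260 kb in each E12.5 library and 300 and 290 kb at E16.5. Among classical genes, Cdh4 and Cdh11, whose contacts are the longest described below, supplied 0 and 3 of the 32 interactions in E12.5 replicate 1, 5 and 3 of 27 in replicate 2, 24 and 10 of 62 in E16.5 replicate 1 and 26 and 26 of 98 in replicate 2.

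**Figure D2:**
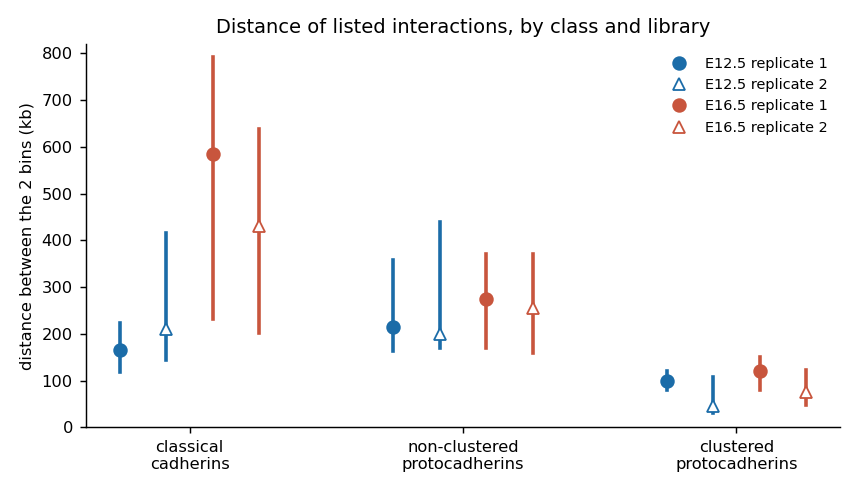
Distance between the bins of listed interactions (vertical axis, kb) for each class and library. Points are medians and lines span the interquartile range. The clustered medians (45 to 120 kb) lie below those of the other classes in each library. The classical medians at E16.5 (585 and 430 kb) lie above those at E12.5 (165 and 210 kb). So do the non-clustered medians (275 and 255 kb against 215 and 200 kb).

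Across all 2449 tested gene-end bins, edgeR's quasi-likelihood test with Benjamini-Hochberg adjustment at 0.05 called 7.39% higher in number of listed interactions at E16.5 and 2.16% lower. Scaling by the library total in place of TMM moved the median log2 change of all bins from 0.19 to 0.01, and the calls from 181 higher and 53 lower to 156 and 88. Of the 13 cadherin and protocadherin bins, 3 were called higher and none lower: an end of Pcdh7, of Cdh4 and of Pcdh8. Among the marker genes given above, Neurod6 and Tbr1 of the forebrain were called higher as well. Called lower were Emx2, Dlx2 and Sox2 of the forebrain and Hoxb2, Hoxb3, Hoxb4 and Pax2 of hindbrain and spinal cord. The median log2 change was 0.43 in the 13 bins and 0.19 in all. Before scaling, each E16.5 number exceeded each E12.5 number in 8 of the 13, as in 59.0% of all tested bins, and fell below in 1, at Cdh15, against 4.16%. The 3 calls were also made with the library total, but not by DESeq2, which called none of the 13 (2.13% of all bins higher and 0.534% lower), nor with the quasi-dispersion held at 1 or more (0.817% higher and 0.163% lower), nor with each cluster of neighbouring interactions counted once, where none of 887 bins was called in either direction. Leaving out a library leaves 1 at its stage, and calls were then lost, at the marker genes above as well. The share of all bins called in such fits is not given here. A loss at these bins therefore cannot be told apart from a loss at all bins. The log2 changes of the 3 bins kept their direction in each such fit.

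**Figure D3:**
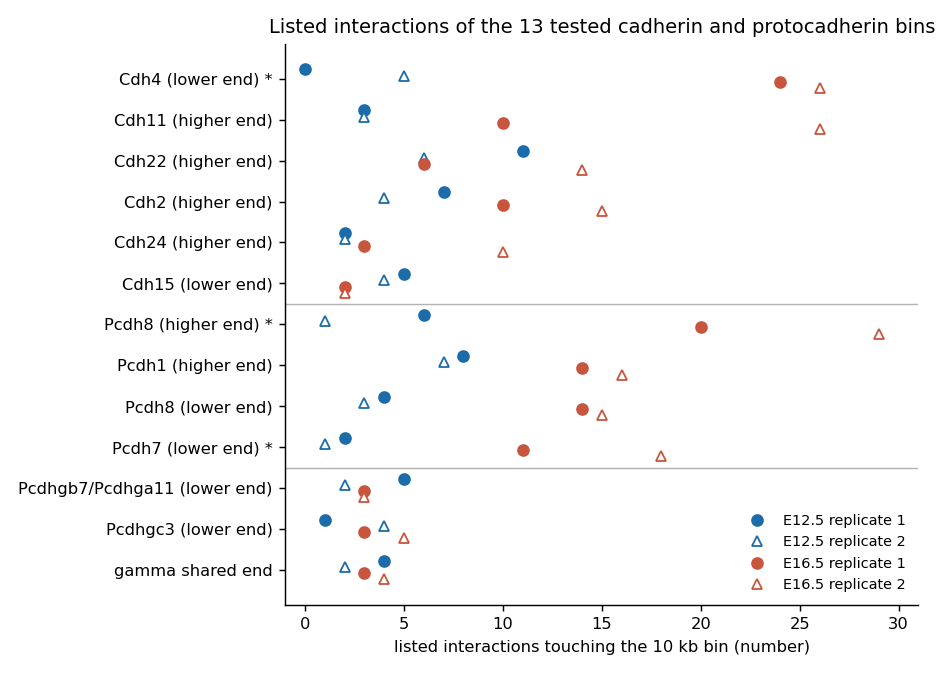
Number of listed interactions that touch each of the 13 tested bins (horizontal axis), with a point per library and an asterisk where edgeR called a higher number at E16.5. The bins are grouped as classical cadherins, non-clustered protocadherins and clustered protocadherins; the E16.5 points of Cdh4 (24 and 26), Pcdh8 (20 and 29) and Pcdh7 (11 and 18) lie apart from the E12.5 points, and those of the clustered bins overlap.

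Among the type I cadherins, the call was at Cdh4 (R-cadherin, chr2:179442423-179899377). The bin of its lower-coordinate end, chr2:179440001-179450000, touched 0, 5, 24 and 26 listed interactions. Both E16.5 libraries thus lay far above both E12.5 libraries, and E12.5 replicate 1 listed no contact of this bin. The log2 change was 2.53 (SE 0.61; edgeR adjusted p = 0.03523). It changed with the E12.5 library left out, to 1.53 without replicate 1 (adjusted p = 0.1259) and to 7.45 without replicate 2, where the lone E12.5 number is 0 and the fitted value is no measured fold. It missed the threshold in lists of equal length (adjusted p = 0.1153), and leaving out 1 library gave adjusted p from 0.0004431, without E12.5 replicate 2, to 0.2807, without E16.5 replicate 1. Its 43 partner bins fell on both sides. The 17 at higher coordinates all lay inside Cdh4, 130 to 440 kb away, and were listed 0, 5, 9 and 9 times. The 26 at lower coordinates lay between protein-coding genes, 220 to 950 kb away, and were listed 0, 0, 15 and 17 times. This side thus appeared in the E16.5 lists alone, which were the longer lists. Of these 26, 6 were in both E16.5 lists, the strongest 810 kb away with 24 and 15 read pairs. Inside the gene, the bin 420 kb away was listed with 21 read pairs in E12.5 replicate 2 and 32 and 27 at E16.5.

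Cdh2, the N-cadherin of neuroepithelial junctions (chr18:16588877-16809246), had contacts at both stages. The bin of its higher-coordinate end touched 7, 4, 10 and 15 interactions (log2 change 0.43, edgeR adjusted p = 0.6661), which is higher in both E16.5 libraries before scaling. Of its 23 partner bins, 11 lay inside the gene, 120 to 220 kb away. A second group lay about 600 kb away between genes, where the bin at 590 kb was listed with 20, 32 and 23 read pairs in E12.5 replicate 2 and the E16.5 libraries. Cdh15, the M-cadherin of skeletal muscle (chr8:122848374-122867397), had lower numbers at E16.5. Its start bin touched 5, 4, 2 and 2 interactions (log2 change -1.84, SE 0.59), and the difference did not pass the threshold (edgeR adjusted p = 0.112). Its partners at lower coordinates were bins of Cbfa2t3, a transcriptional co-repressor, and a bin with ends of Galns, Trappc2l and Pabpn1l. That last contact was listed with 13, 16, 21 and 24 read pairs and the stronger Cbfa2t3 contact with 24, 27, 29 and 33. After scaling their log2 changes were 0.27 and -0.08 (edgeR adjusted p = 0.6922 and 0.8978). The bin of the other end of Cdh15 touched 0, 1, 4 and 3 interactions and was not tested.

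Among the type II cadherins, Cdh11 (OB-cadherin of mesenchyme, also expressed in brain; chr8:102632095-102785493) had the longest contacts. The bin of its higher-coordinate end touched 3, 3, 10 and 26 interactions, higher in both E16.5 libraries and highest by far in replicate 2 (log2 change 1.81, SE 0.59; edgeR adjusted p = 0.08582). All 30 partner bins lay between genes, and 29 of them at higher coordinates, 410 to 960 kb away. Only 8 were listed in more than 1 library. The contact at 660 kb had 9 read pairs in E12.5 replicate 2 and 17 and 23 at E16.5, with 9 as the lowest count listed for this bin. Cdh22 (chr2:165111501-165234924), a type II cadherin of brain and pituitary, also had contacts at both stages. Its start bin touched 11, 6, 6 and 14 interactions, and the stages overlapped (log2 change -0.50, adjusted p = 0.5728). Its strongest contact joined the bin that holds an end of Cd40, 160 kb away, with 82, 75, 78 and 64 read pairs, and its log2 change after scaling to the longer E16.5 lists was -0.51 (SE 0.22; edgeR adjusted p = 0.1294). The contacts at 110, 130, 140 and 150 kb were also in all 4 lists with 27 to 62 read pairs. The start bin of Cdh24, which also holds an end of Acin1, touched 2, 2, 3 and 10 interactions (adjusted p = 0.5065). Its contact with an end of Ajuba, which encodes a LIM-domain protein of cadherin junctions, was listed with 115 read pairs in E12.5 replicate 2 and 108 in E16.5 replicate 2 and in neither replicate 1. Cdh20 (1, 0, 2 and 1 at its higher-coordinate end) and Cdh8 (0, 0, 0 and 1 at its start bin) had few listed contacts, and the other end of Cdh22 touched 2, 3, 1 and 1.

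Among the non-clustered protocadherins, delta-1 genes (Pcdh1, Pcdh7 and Pcdh9) have longer extracellular parts than delta-2 genes (Pcdh8, Pcdh10, Pcdh17 and Pcdh18). The start bin of Pcdh7 (chr5:57716145-58133236) touched 2, 1, 11 and 18 interactions, with no overlap between stages. The log2 change was 2.46 (SE 0.53; edgeR adjusted p = 0.02557). Leaving out any 1 of the 4 libraries moved the adjusted p to between 0.05206 and 0.1545. The log2 change was 3.77 in lists of equal length and 1.72 with clusters counted once. All 21 partner bins lay downstream of the start, and 18 of them inside the gene, 220 to 420 kb away, with 6 of the 18 in both E16.5 lists and in neither E12.5 list. The nearest of these, at 220 kb, had 26 and 28 read pairs. No bin closer than 220 kb to the start was listed, although the lists reach down to 20 kb.

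Pcdh8 (arcadlin, which controls N-cadherin at synapses; chr14:79766772-79771312) is a short gene that fills parts of 2 neighbouring bins. Its start bin, whose promoter is printed above, touched 6, 1, 20 and 29 interactions. The E16.5 numbers lay well above those of E12.5 (log2 change 2.03, SE 0.50; edgeR adjusted p = 0.03912), but the E12.5 libraries differed. Without E12.5 replicate 1 the log2 change was 3.73 (adjusted p = 0.006571), and without E12.5 replicate 2 it was 1.28 (adjusted p = 0.1623). Leaving out an E16.5 library also ended the call (adjusted p = 0.2041 without replicate 1 and 0.2494 without replicate 2). The neighbouring bin, which holds the other end, touched 4, 3, 14 and 15 and missed the threshold (log2 change 1.28, adjusted p = 0.1115). As neighbours, the 2 bins are not independent. Their partners lay on both sides. At lower coordinates the start bin met 6 bins in Sugt1, which encodes a co-chaperone, and the adjoining Cnmd, 130 to 180 kb away, listed 0, 0, 3 and 6 times. At higher coordinates it met 27 bins from 100 to 450 kb away, nearly all between genes, listed 6, 1, 17 and 23 times. The Sugt1 contacts were among the strongest of the gene at E16.5. The bin chr14:79610001-79620000 was listed with 62 and 65 read pairs from the gene's lower bin and 47 and 46 from its start bin, and in neither E12.5 list.

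Contact strength, the read-pair count of a bin pair listed in all 4 libraries, could be tested for 19 contacts of these genes among 6875, since 11.7% of all listed pairs were in all 4 lists. edgeR called 5.88% of all such contacts higher at E16.5 and 4.58% lower. Of the 19, 3 were called higher and none lower, and 13 had a log2 change above 0 (median 0.33, against -0.01 for all contacts). The share of all contacts above 0 is not given here. The 19 came from few bins and are not separate measurements. All 7 of the Pcdh1 bin and all of the Pcdh8 bins (2 and 1) were above 0, and all 5 of the Cdh22 start bin were below. A region between genes at chr14:80210001-80220000 gave the 2 Pcdh8 calls. From the lower bin of Pcdh8, 450 kb away, it had 18, 22, 60 and 42 read pairs (log2 change 0.98, SE 0.28; edgeR adjusted p = 0.01407). From the start bin it had 23, 17, 60 and 40 (log2 change 0.95, SE 0.28; adjusted p = 0.01862). Before scaling, each E16.5 count exceeded each E12.5 count in both contacts, and the share of all contacts with this pattern is not given here. The authors' ratio of observed to expected read pairs was 5.41, 9.08, 10.69 and 7.53 from the lower bin, where the stages overlapped. From the start bin it was 5.42, 5.87, 9.59 and 6.77, without overlap. The remaining call was of Pcdh1, 210 kb away, with 28, 20, 51 and 59 read pairs (log2 change 0.83, SE 0.27; adjusted p = 0.03232). DESeq2 called none of the 19 (2.05% of all contacts higher and 1.36% lower), and neither did edgeR with the authors' expected count as an offset (0.0582% higher and 0.0% lower). The 3 calls were also lost with either E12.5 replicate left out, and the share of all contacts called in such fits is not given here. Both Pcdh8 calls were lost without E16.5 replicate 1 (adjusted p = 0.1303 and 0.1897), and the Pcdh1 call without E16.5 replicate 2 (0.1986).

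Pcdh1 (chr18:38185914-38212048) had the contacts with the most read pairs of its class. The bin of its higher-coordinate end touched 8, 7, 14 and 16 interactions, which after scaling is a log2 change of 0.25 (SE 0.32; edgeR adjusted p = 0.8065). All 16 partner bins lay at lower coordinates, 60 to 250 kb away, past the gene's own body. The contact at 190 kb, in a stretch with a long non-coding RNA gene, was the strongest that any non-clustered protocadherin had in 2 or more libraries, with 61, 67, 102 and 135 read pairs (log2 change 0.53, SE 0.22; adjusted p = 0.1092). The authors' ratio of observed to expected read pairs there was 7.6538, 8.1532, 8.2817 and 10.5852. Of the 16 partners, 7 were in all 4 lists, more than for any of the other 12 tested bins, and 6 were in both E16.5 lists and in neither E12.5 list, among them bins of Arap3 and Fchsd1.

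Outside the gamma array, no listed interaction joined ends of different cadherin or protocadherin genes, while 3 genes had their own ends joined. The ends of Cdh22, 120 kb apart, were listed with 55, 43 and 45 read pairs in the E12.5 libraries and E16.5 replicate 2. Those of Cdh2, 220 kb apart, had 16 in E12.5 replicate 1, and those of Pcdh7, 420 kb apart, had 15 in E16.5 replicate 2.

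The remaining non-clustered genes had few listed contacts, none of them enough for a test. Pcdh9 touched 0, 0, 2 and 2 and Pcdh18 0, 0, 2 and 3 at their start bins, so that both appeared in the E16.5 lists alone. Those lists were longer, and the share of all gene-end bins listed at E16.5 alone is not given here. Pcdh17, Pcdh20 and Pcdh15, the tip-link protocadherin of hair cells, each had 1 in an E16.5 library. Pcdh12, an endothelial and placental protocadherin, touched 2, 0, 2 and 3 at its higher-coordinate end. Pcdh10, whose tail recruits the WAVE complex, touched none in any library. Over the 298 bin pairs of all classes, 49 were in both E16.5 lists and in neither E12.5 list, against 15.2% of all listed pairs. These were 32 of 111 for non-clustered protocadherins, 14 of 143 for classical cadherins, 0 of 36 for clustered protocadherins and 3 of 8 for other cadherins. The reverse, both E12.5 lists and neither E16.5 list, was found for 0, 2, 1 and 0 pairs, against 1.83% of all. Most of the 32 came from few bins: 11 and 5 from the neighbouring start and lower bins of Pcdh8 and 6 each from the Pcdh7 and Pcdh1 bins. Pairs of neighbouring bins are not independent, so the 32 are not separate measurements of the class. Of all 298 pairs, 175 were in 1 library, against 52.6% of all listed pairs. Of these 175, 104 were in E16.5 replicate 2 alone and 53 in E16.5 replicate 1 alone. The matching shares of all listed pairs are not given here.

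**Figure D4:**
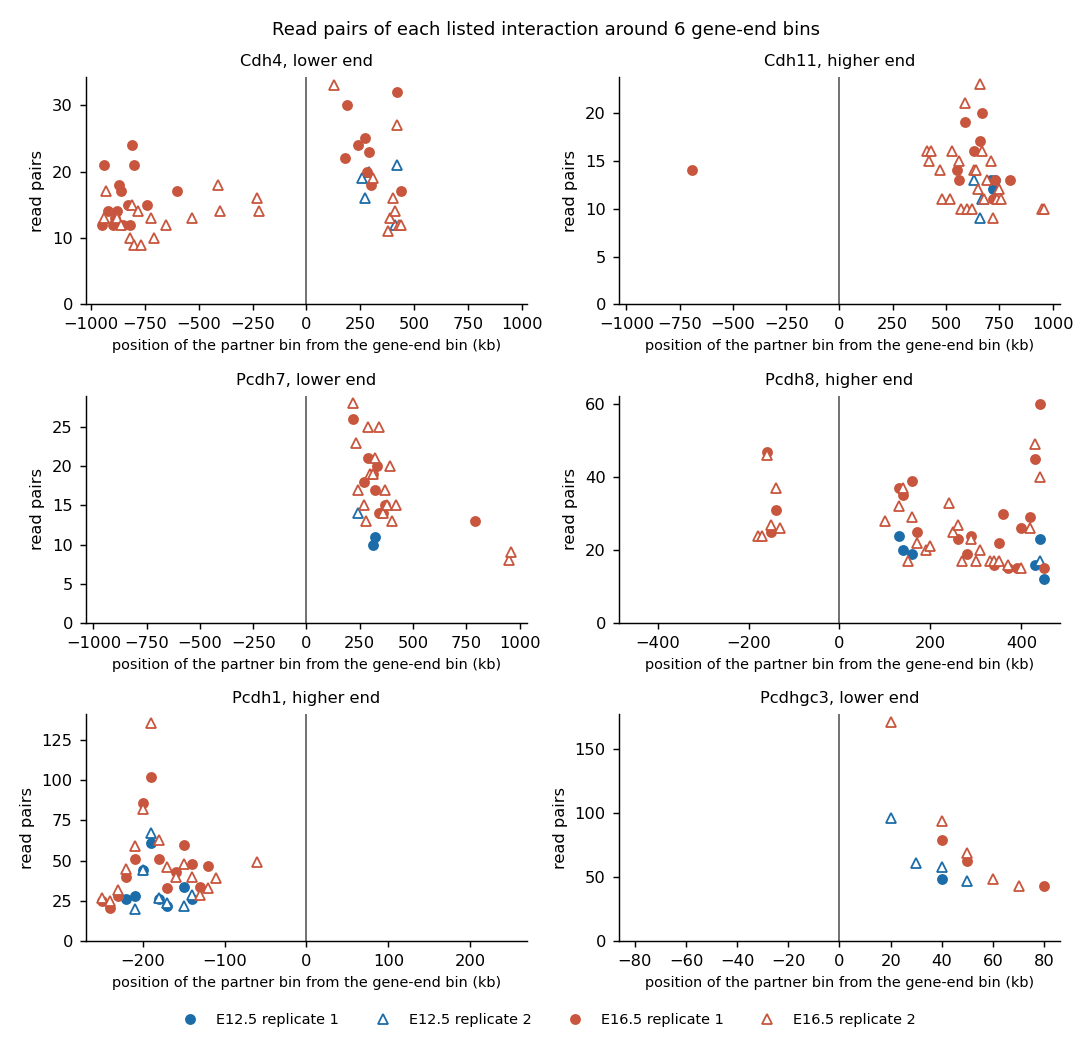
Read pairs of each listed interaction (vertical axis) against the position of the partner bin from the gene-end bin (horizontal axis, kb, with negative values at lower coordinates), for 6 bins and 4 libraries. Contacts of Cdh4 and Pcdh8 lie on both sides, those of Pcdh7 and Pcdhgc3 at higher coordinates, those of Pcdh1 at lower coordinates, and those of Cdh11 mostly 410 to 960 kb away at higher coordinates.

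The clustered protocadherins differed among the 3 arrays on chromosome 18. The alpha array (14 genes, 12 end bins) touched 0, 0, 0 and 1 listed interactions, and the beta array (22 genes, 20 end bins) touched none in any library. The gamma array (21 genes, 14 end bins, 12 of them with a contact) touched 11, 10, 21 and 15. The start of each gene's span is its variable exon, and the 21 gamma genes share 1 bin at the other end, so a contact of that bin cannot be given to a single gene. Most partners lay beyond the array. Of the 36 bin pairs of clustered genes, 26 (72.22%) joined 11 gamma bins to 5 bins inside Diaph1, an actin-nucleating formin whose gene adjoins the array (chr18:37843601-37935622). They spanned 40 to 220 kb and were listed 7, 5, 17 and 10 times with 10 to 69 read pairs, and 18 of the 26 were in 1 library. None of the 36 partners lay between genes, where 81 of 143 did for classical cadherins (56.64%) and 70 of 111 for non-clustered protocadherins (63.06%). The protein-coding gene Gm37013 spans from the alpha array to the shared end of the gamma array, and Diaph1 adjoins it. A partner in this stretch cannot count as lying between genes, so the difference is no result about contacts.

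Within the gamma array, the last variable exons met the shared end. The bin of Pcdhgc3 and the shared end bin, 40 kb apart, had 49, 58, 79 and 94 read pairs (edgeR adjusted p = 0.3973). The bin of Pcdhgc4 and Pcdhgc5, 30 kb from the shared end, had 58, 48, 80 and 79 (adjusted p = 0.6028). These were the clustered contacts listed in all 4 libraries, and neither passed the threshold. The bin of Pcdhgb7 and Pcdhga11 met the shared end, 90 kb away, with 31 read pairs in E12.5 replicate 1 and 23 in E16.5 replicate 2, and that of Pcdhga12 met it with 30 in E16.5 replicate 2. The clustered contact with the highest mean of read pairs, among those in 2 or more libraries, joined Pcdhgc3 to a bin 20 kb away within the array. It had 96 read pairs in E12.5 replicate 2 and 171 in E16.5 replicate 2, and it was in neither replicate 1. The authors' ratio of observed to expected read pairs there was 2.2533 and 2.2378, close to the 2 at which the lists begin. For the contacts at 40 and 30 kb this ratio ran from 2.0547 to 3.2835. In number, Pcdhgc3 touched 1, 4, 3 and 5 interactions (adjusted p = 0.972), the bin with the starts of Pcdhgb7 and Pcdhga11 touched 5, 2, 3 and 3 (adjusted p = 0.5106), and the shared end, which also holds an end of Diaph1 and of Gm37013, Gm38666 and Gm38667, touched 4, 2, 3 and 4 (adjusted p = 0.7504). In each of the 3 bins the stages overlapped. The bin with the starts of Pcdhgc4 and Pcdhgc5 touched 1, 2, 2 and 2 and was not tested. Pcdhgb7, Pcdhga11 and their neighbours are near-identical in part, and how reads that map to several of them were treated is not given in the sources used here.

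Of the other cadherins, Cdh16, the kidney cadherin, touched 0, 0, 2 and 4 interactions at its lower-coordinate end and 1, 0, 0 and 1 at the other, whose bin also holds an end of Rrad. Cdh23, the tip-link partner of Pcdh15, touched 0, 0, 2 and 1 at a bin that also holds an end of Psap. The E16.5 libraries listed its contact with an end of Slc29a3, 450 kb away, with 20 and 22 read pairs. Cdh13, the T-cadherin with a lipid anchor, Cdh17, the intestinal cadherin, and Cdh26 touched none.

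The wider adhesion pathway was read from 3 lists of genes, each gene at its end bin with the higher summed number. The list of other genes of the cadherin superfamily held 26, with Fjx1 among them, which encodes no cadherin. Of the 26, 11 had a tested bin, Fjx1 included. Of these, 2 were called higher at E16.5 and none lower, where 7.39% of all 2449 tested bins were called higher and 2.16% lower. Fat4, a giant cadherin of planar cell polarity, touched 4, 7, 26 and 36 interactions (log2 change 1.73, SE 0.35; edgeR adjusted p = 0.02301). Clstn2, a synaptic calsyntenin, touched 0, 0, 10 and 7 (adjusted p = 0.02381). Neither call was made by edgeR at a quasi-dispersion of at least 1, in interactions below an FDR of 0.0001, or with E12.5 replicate 1 or either E16.5 library left out. Over these 3 omissions the adjusted p of Fat4 ran from 0.1079 to 0.1545. DESeq2 did not call Fat4 either (adjusted p = 0.1382) and gave no adjusted p for Clstn2. The other 9, among them the Celsr genes, Fat1 and Fat3, did not pass the threshold. Of 19 catenins and junction partners, 4 had a tested bin and none was called, although Ctnnd2 was called higher without E12.5 replicate 2. The smallest p among them were those of Ctnnd2, the neural delta-catenin, with 0, 3, 8 and 9 (adjusted p = 0.1965), and Pkp4, a relative of p120 catenin, with 2, 2, 7 and 11 (adjusted p = 0.2034). Of 18 effectors and regulators of the protocadherin arrays, 2 had a tested bin and none was called: Wasf1, a WAVE subunit, with 0, 1, 5 and 9 (adjusted p = 0.07634), and Smc3, a cohesin subunit, with 5, 2, 4 and 4 (adjusted p = 0.7293).

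CpG content and listed contacts were set side by side for the 24 promoters with a sequence. The 5 whose start bin had 10 or more listed interactions over the 4 libraries were those of Cdh22 (30 CpG), Cdh24 (22), Pcdh8 (11), Pcdh7 (7) and Cdh15 (5). The 8 with 1 to 9 had a median of 18 CpG, and the 11 with none had a median of 6, in a range from 0 to 22. Pcdh10 stood at the upper end of that range with 22. Over all promoters, a listed interaction at the start bin was found for 15.69% of those with 0 to 4 CpG, 45.67% of those with 5 to 14 and 56.05% of those with 15 or more. Promoters of 69 genes, among them Cdh4, Cdh11, Cdh2, Pcdh1 and all clustered protocadherins, were not analysed here.

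**Figure D5:**
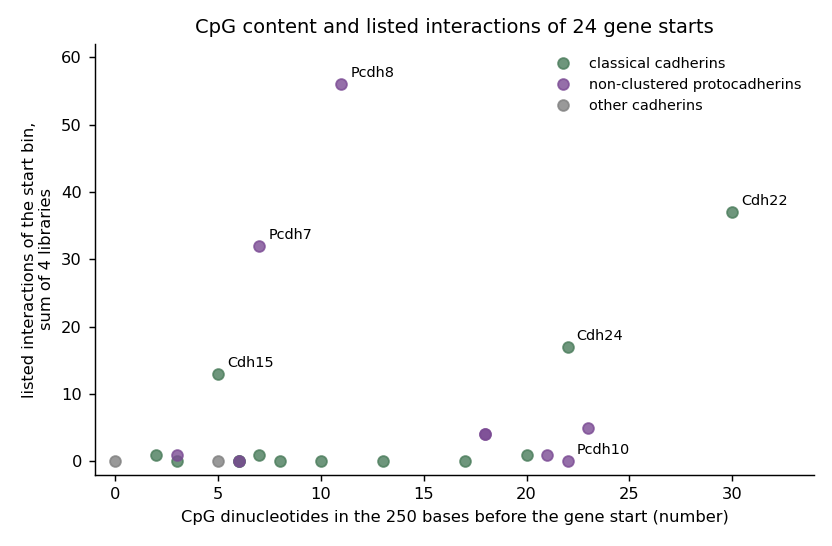
Listed interactions of the start bin, summed over 4 libraries (vertical axis), against CpG dinucleotides in the 250 bases before the start (horizontal axis) for 24 promoters. Pcdh8 with 56 interactions and 11 CpG lies highest, and Pcdh10 with 22 CpG lies at 0.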

How the data were processed

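The 4 deposited lists, a list for each H3K4me3 PLAC-seq library, were used. Per the file headers, each line gives a pair of bins, the count of read pairs, the signal that the authors' model expects, an FDR (a q-value) and the cluster of the interaction; the counts were used as deposited. The submitters' processing notes name BWA, SAMtools and mm10, while for the caller, and for what its expected count corrects, the record is: not given in the sources used here. The lists were called in each library separately, and hold pairs with a count at least 2 times the expected.

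Genes, ends and promoters came from RefSeq tables of GRCm38.p6, with 1-based coordinates. Contact number, the listed interactions that touch a bin, was tested for 2449 gene-end bins with a sum of at least 10, and contact strength, the read-pair count, for 6875 pairs listed in all 4 libraries. The fits were made with edgeR 4.0.16 under R 4.3.3 (TMM, robust quasi-likelihood, stage as sole term, Benjamini-Hochberg over all features at 0.05), tested on simulated data. Changes are E16.5 minus E12.5. Shares and distances used exact permutation over libraries. Numbers of neighbouring bins share interactions.

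Named were all called bins and contacts, the 4 bins with the highest sum per class, the strongest contact per class, gene pairs linked to each other, and per list the called genes or the 2 with the smallest p; other bins are given by count or as examples chosen after their values were seen. The genes and lists were chosen with earlier results of these data known. The same-numbered replicates had correlated deviations of 0.056 (contact number) and 0.126 (contact strength), and nothing in the labels pairs them. Alternatives were DESeq2 1.42.0, the library total, other minimum sums, lists of equal length (16075), an FDR under 0.0001, clusters counted once, gene-start bins, a quasi-dispersion of at least 1, the expected count as offset, read pairs, cluster summits, the replicate block and each library left out.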

Additional observations from a re-analysis of the deposited data

How the results depend on the processing

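With 2 libraries per stage and no library depth, the calls at these genes rested on few numbers. The count of bins called higher in contact number, 3 as reported, was 0 with DESeq2, an FDR under 0.0001, clusters counted once or a quasi-dispersion of at least 1. It was 1 with gene-start bins (5 tested) or no filter (41 tested). In lists of equal length it was 2 of 11, where 3.83% of all bins were called higher. Fewer were called with a library left out, and none was called lower in any setting. The share over all bins is not given here for an FDR under 0.0001, gene-start bins or no filter. The same holds for bins and contacts with a library left out. The count of contacts called higher in strength, also 3, was 0 with DESeq2 or the expected count as offset, and 0 to 3 with a library left out; the count called lower was 0 to 1 with a library left out. With the replicate block, 7 contacts were called higher and 2 lower (7.74% and 5.92% of all contacts), and 4 bins were called higher in number (12.6% of all bins); the replicate numbers share only a number, since nothing pairs them.

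Directions changed as follows, and the cause was not tested. The classical share was 0.9119 times as high by read pairs. The change in median distance of non-clustered protocadherins was -2.5 kb at an FDR under 0.0001. That of clustered protocadherins was -22.5 kb in lists of equal length, -12.5 kb at an FDR under 0.0001 and with cluster summits, and -2.5 to 52.5 kb with a library left out. Among bins that were not called, by edgeR, the sign turned in lists of equal length for Cdh2 and the gamma shared end (adjusted p = 0.9557 each) and for Pcdhgc3 (0.7266, and 0.9828 with a sum of at least 5). It also turned with a library left out for Cdh24 (adjusted p from 0.2996 to 0.9759 over the libraries left out), the gamma shared end (0.6704 to 0.9825) and Pcdhgc3 (0.6839 to 0.9274). Among contacts it turned with the expected count as offset for Pcdhgc4 and Pcdhgc5 with the shared end (0.9564) and for 3 of Pcdh1 (0.9937, 0.9587 and 0.8949), and with a library left out for the Cdh22 contacts at 150 kb (0.2445 to 0.9818) and 140 kb (0.08842 to 0.9777) and the Cdh15 contact with Cbfa2t3 at 170 kb (0.7756 to 0.9765). Of the values of single bins and contacts under the alternatives, 267 kept their direction and their side of the threshold, 41 lost a call, 10 gained one and 17 turned. Most of the 267 belonged to bins and contacts that were not called at the outset. Each call that was made was lost in more alternatives than kept it.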
